A study of Mus musculus with 4 samples.

Results

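Stretches of the genome between 500 and 10000 bp long whose DNA methylation differed between CA1 tissue with and without a Camk2a-driven Cre in Tet2+f mice are described here. A region was taken when both Tet2+f_Camk2aCre libraries lay above, or both below, the pair of Tet2+f libraries and the group means were 10 percentage points or more apart. Of 849172 regions in the deposited table, 761315 were autosomal, of this length and had a value in all 4 libraries, and 4532 of these (0.595%) met the rule. In the Tet2+f_Camk2aCre libraries 2545 regions (0.334%) were higher and 1987 (0.261%) were lower. The regions were chosen by their measured methylation levels, so their group differences are a description and carry no test, and the 2 groups never overlap in a member.

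Whole-genome bisulfite sequencing had been run on CA1 hippocampal tissue of C57B6/J mice aged 117 days, giving 2 Tet2+f_Camk2aCre libraries and 2 Tet2+f libraries. All 4 carry Tet2+f, and the Cre is named for Camk2a, which excitatory neurons of the forebrain express. The series describes a reduced Tet2 dose in glutamatergic cells, which is taken to be that of the Cre group. A group with Cre and without Tet2+f was not analysed here, so Tet2 dose and the Cre transgene cannot be told apart. Nothing in the labels ties the replicates to different animals, so a p-value here reflects only how these libraries vary, perhaps for technical reasons. The table gives percent methylation without read counts, which leaves the depth behind each level unknown. In bulk tissue a change in few cells and a smaller change in many cannot be told apart.

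TET2 is a dioxygenase that oxidises 5-methylcytosine to 5-hydroxymethylcytosine, a step on the path to the unmethylated base. Neurons are rich in 5-hydroxymethylcytosine, mostly over gene bodies. Bisulfite reads both forms as methylated, so a level here is their sum.

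Sequence at 5 gene starts lying inside regions that met the rule is shown because gene starts are where a level can be set beside a known gene. Each window is RefSeq's on GRCm38.p6, from 250 bases before the start to 50 after it, 5′ to 3′ on the gene's strand, with CG, the methylated dinucleotide, in capitals. Zfp979 (chr4:147642459-147642758, minus strand) and Qprt (chr7:127121980-127122279, minus strand) lie in regions that were higher. Ifitm3 (chr7:141010695-141010994, minus strand), Nhlrc4 (chr17:25944882-25945181, minus strand) and F10 (chr8:13037058-13037357, plus strand) lie in regions that were lower.
Zfp979: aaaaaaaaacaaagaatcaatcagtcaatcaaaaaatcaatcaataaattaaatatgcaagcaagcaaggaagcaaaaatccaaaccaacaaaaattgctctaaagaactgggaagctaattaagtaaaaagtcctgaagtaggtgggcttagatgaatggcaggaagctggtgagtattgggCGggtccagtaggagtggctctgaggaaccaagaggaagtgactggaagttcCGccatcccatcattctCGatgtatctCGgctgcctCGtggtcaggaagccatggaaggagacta
Qprt: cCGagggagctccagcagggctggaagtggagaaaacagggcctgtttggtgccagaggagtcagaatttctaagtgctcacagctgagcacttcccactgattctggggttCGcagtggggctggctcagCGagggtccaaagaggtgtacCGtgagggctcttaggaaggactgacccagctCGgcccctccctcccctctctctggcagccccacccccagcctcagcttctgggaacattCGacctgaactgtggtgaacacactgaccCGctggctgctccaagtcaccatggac
Ifitm3: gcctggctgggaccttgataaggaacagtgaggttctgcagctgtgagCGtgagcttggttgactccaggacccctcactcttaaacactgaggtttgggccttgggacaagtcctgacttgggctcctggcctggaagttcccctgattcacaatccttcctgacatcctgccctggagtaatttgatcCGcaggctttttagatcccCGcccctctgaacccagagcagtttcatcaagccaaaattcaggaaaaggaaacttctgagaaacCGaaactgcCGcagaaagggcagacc
Nhlrc4: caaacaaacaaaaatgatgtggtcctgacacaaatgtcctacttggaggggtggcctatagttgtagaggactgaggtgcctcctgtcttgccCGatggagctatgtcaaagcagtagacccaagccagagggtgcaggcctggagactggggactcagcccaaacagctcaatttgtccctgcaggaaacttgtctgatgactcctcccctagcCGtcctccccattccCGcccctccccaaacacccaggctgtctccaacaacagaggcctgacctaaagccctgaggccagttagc
F10: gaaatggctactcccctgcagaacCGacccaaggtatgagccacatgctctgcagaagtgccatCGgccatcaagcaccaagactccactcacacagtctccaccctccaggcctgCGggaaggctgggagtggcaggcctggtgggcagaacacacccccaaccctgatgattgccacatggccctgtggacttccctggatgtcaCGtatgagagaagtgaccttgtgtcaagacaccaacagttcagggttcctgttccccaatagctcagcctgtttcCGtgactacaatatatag

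These windows hold 5 CG in Zfp979, 7 in Qprt, 5 in Ifitm3, 3 in Nhlrc4 and 5 in F10. The region over the start of Zfp979, a zinc finger gene, was at 81.3% and 78.8% in the Tet2+f_Camk2aCre libraries and at 62.4% and 64.5% in the Tet2+f libraries. Over the start of Qprt, a quinolinate phosphoribosyltransferase of NAD synthesis, the region was at 57.5% and 60.6% with Cre and at 43.5% and 44.6% without. For Ifitm3, an interferon-induced membrane protein, the region was at 56.6% and 59.6% with Cre and at 78.9% and 71.2% without. The nearest libraries of the 2 groups were 11.6 points apart at this start. At Nhlrc4, where the region also reaches Pigq, levels were 60.3% and 57.7% with Cre and 74.96% and 71.3% without. At F10, the gene of coagulation factor X, they were 61.1% and 58.9% with Cre and 71.6% and 74.3% without. The region at the start of Aqp2, a water channel, had the widest gap between the groups among higher regions over gene starts, with 71.3% and 69.6% against 53.4% and 54.1%. The starts were taken from the widest gaps in each direction, so how many were higher or lower is set by that choice.

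Over all 141 start windows that lay whole inside regions meeting the rule, 71 in higher and 70 in lower ones, the median was 5 CG per window, against 3 over the 16243 windows inside regions of this length. The windows chosen by the other pairings also had a median of 5 CG. Letters of the cAMP response element, TGACGTCA on either strand, were in 3 of the 141 (2.13%) and in 0.763% of all such windows. All 3 are overlapping start windows of 1 gene, Celf3, an RNA-binding regulator of splicing. The E-box CACGTG was in 6.38% of the 141 and in 4.32% of all, against 4.07% and 4% in the other pairings. These matches describe the windows only.

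The number of regions meeting the rule between the groups lay within the range of the other pairings of the same libraries. With replicate 1 of both groups set against replicate 2 of both, 4752 regions (0.624%) met it, 1778 (0.234%) higher and 2974 (0.391%) lower. With Cre replicate 1 and control replicate 2 set against the other two libraries, 4419 regions (0.58%) did, 2623 (0.345%) higher and 1796 (0.236%) lower. The count of 4532 therefore says nothing by itself about Tet2 or Cre. By limma on logit levels with Benjamini-Hochberg adjustment over the whole table, 0 of the 761315 regions (0%) had an adjusted p under 0.05, the smallest being 0.937, and 30393 (3.99%) had an unadjusted p under 0.05. The mean level over all 761315 regions was 79.4% and 79.3% in the Cre libraries and 79.2% and 79.5% in the control libraries, a difference of -0.00849 points (exact two-sided permutation test, p = 1, with 0.333 the smallest p that 6 arrangements allow).

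By the widest gaps the Cre pairing had more regions than the others, while by the difference of means the pairings were close. A gap is the distance from the lowest library of the higher group to the highest library of the lower group. Between the Cre and control groups 17 regions (0.00223%) had a gap of 20 points or more, 13 of them higher and 4 lower, against 10 and 11 regions in the other pairings. At 30 points or more there were 7 (0.000919%), all higher, against 2 and 1. Of these 7 regions, 3 are neighbours at Camk2a. At a gap of 10 points or more there were 598 regions (0.0785%), against 660 and 588. By the difference of means, 105 regions that met the rule (0.0138% of those eligible) were 20 points or more apart, against 104 and 97, and 19 (0.0025%) were 30 points or more apart, against 17 and 12. The largest difference of means, 56.1 points, was in the replicate pairing, against 54.8 points between the groups. Most members were close to the threshold, since 1521 higher regions (59.8%) and 1241 lower ones (62.5%) differed by under 12 points.

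**Figure D1:**
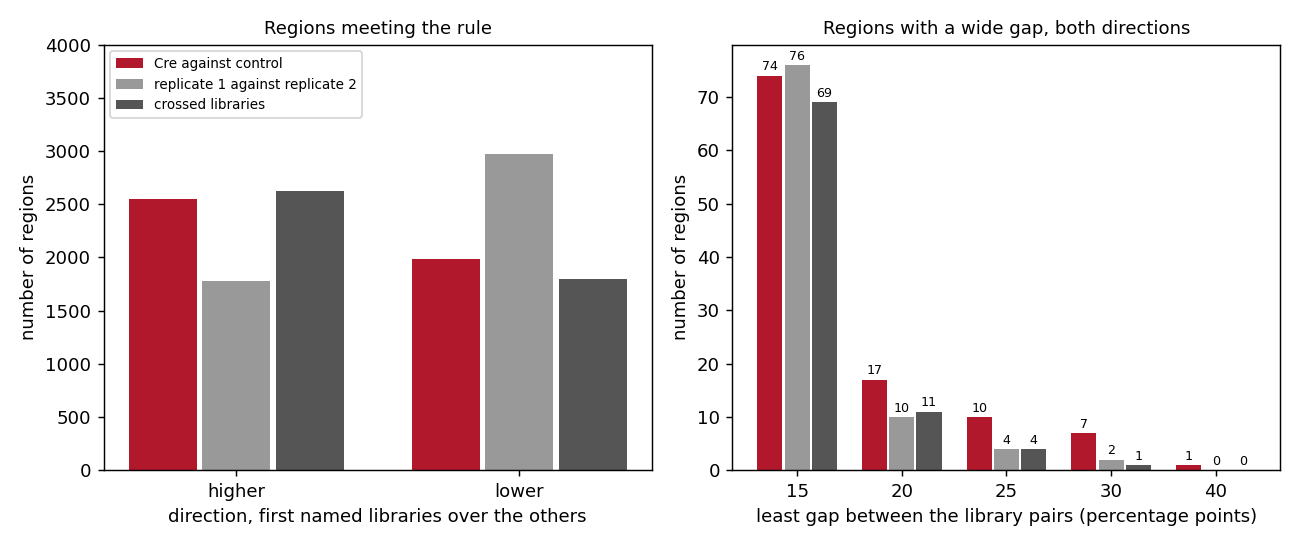
Number of autosomal regions of 500 to under 10000 bp that met the rule (left, by direction) and with a wide gap between the library pairs (right, by the least gap in percentage points), for the Cre libraries against the controls and for the 2 other pairings. The Cre pairing has 2545 higher and 1987 lower regions, inside the range of the others, but 7 regions with a gap of 30 points or more against 2 and 1.

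The widest gap of all lay inside Gm46595, not a protein-coding gene, on chromosome 17 from 70957525 to 70958097. The nearest coding gene, at 15866 bp, is Myl12b, a myosin regulatory light chain gene. This region was at 76.8% and 64.9% in the Tet2+f_Camk2aCre libraries and at 17.8% and 21.6% in the Tet2+f libraries, a difference of 51.1 points. A region 201622 bp from Slc24a2, a sodium, calcium and potassium exchanger of neurons, was at 81.7% and 83.0% with Cre and at 38.3% and 44.4% without. In both places the Cre libraries were nearer than the control libraries to the median level of all regions, 84.0%. Inside Gm26760, also not a coding gene, a region was at 91.99% and 91.8% with Cre and at 51.8% and 59.2% without. Its nearest coding gene, at 10724 bp, is that of Cntn1, a cell adhesion protein of axons. Inside Abhd2, a lipid hydrolase, levels were 97.1% and 98.6% with Cre and 63.1% and 65.1% without. The next 5 regions differed by 23.7 to 46.0 points. They lay in Gm40367, a predicted gene, 19626 bp from Ahdc1, an AT-hook DNA-binding protein, 75186 bp from Atg7, an enzyme of autophagy, in Ankrd6 of the Wnt pathway, and in Mgat5, a glycosyltransferase of N-glycan branching. The Gm40367 region was uneven within the Cre group, at 56.2% and 85.2%, against 22.2% and 27.2% in the control group.

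Among lower regions the widest gap lay 2455 bp from AA467197 on chromosome 2 from 122643531 to 122644090, at 49.6% and 32.6% in the Tet2+f_Camk2aCre libraries and at 90.4% and 77.5% in the Tet2+f libraries. A region in Cep85, a centrosomal protein gene, was at 34.9% and 32.3% with Cre and at 60.1% and 61.8% without. In Lin28a, the RNA-binding inhibitor of let-7 maturation, levels were 16.5% and 17.3% with Cre and 37.7% and 38.5% without. These 2 regions both lie on chromosome 4 and had libraries within 3 points of each other in either group. In Tbc1d22a, a GTPase-activating protein gene for Rab proteins, the levels were 59.1% and 70.6% with Cre and 94.4% and 93.9% without. The region 147 bp from Loxl4, a lysyl oxidase of the extracellular matrix, was at 17.7% and 29.8% with Cre and at 48.8% and 53.3% without. The other 7 lay over Gm19802, Gm3012, Hkdc1 and Pcolce and outside coding genes near Cntnap2, Zfp746 and Tbc1d21, with differences between -19.0 and -29.1 points. Gm3012 belongs to a group of near-identical predicted genes, and reads from such copies may be misplaced, so its values are uncertain.

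**Figure D2:**
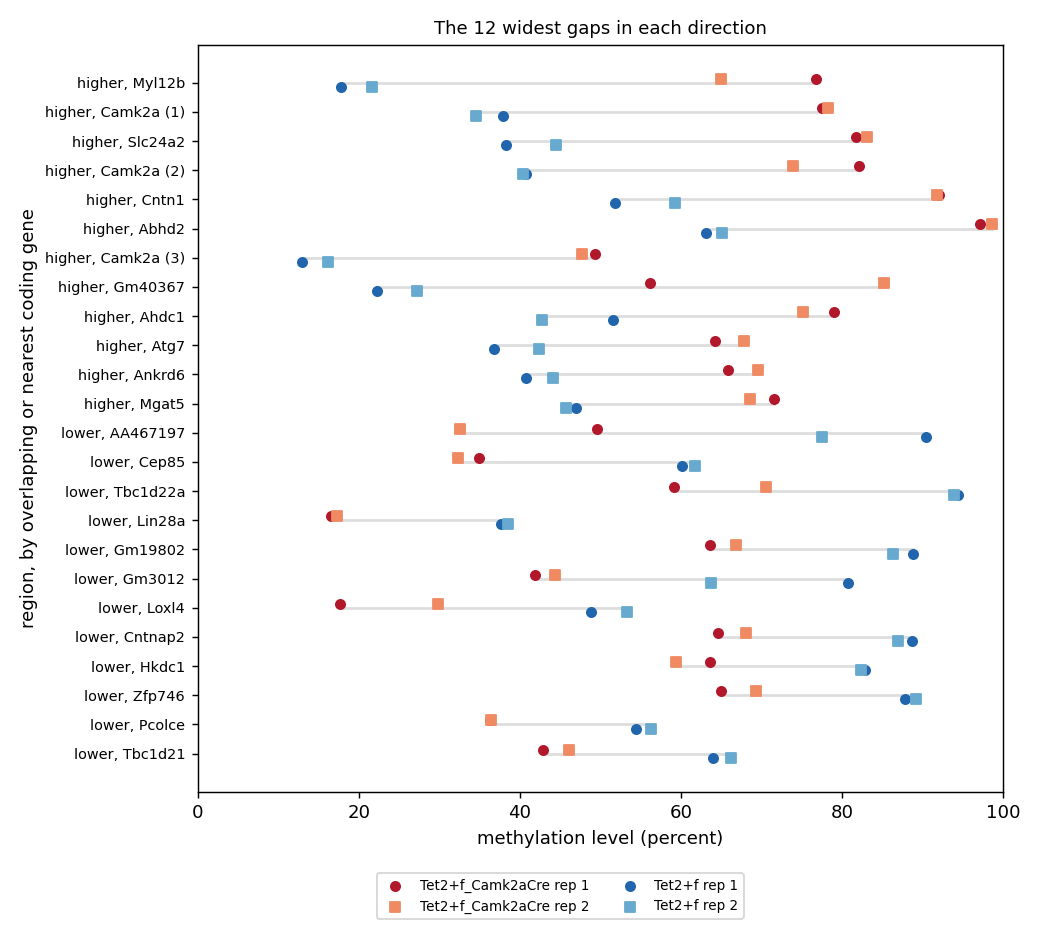
Methylation level in percent of the 12 higher and 12 lower regions with the widest gaps, 1 row per region named by the coding gene it overlaps or lies nearest to, with each library as a point. In every row both Tet2+f_Camk2aCre points lie on one side of both Tet2+f points, from 43.3 points apart for the region near Myl12b to 17.8 points near Tbc1d21.

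Camk2a, which encodes a subunit of the synaptic kinase CaMKII and gives the Cre its name, held 5 regions, all higher with Cre. The 3 adjoining regions from 60922197 to 60926634 on chromosome 18 averaged 69.7% and 66.6% in the Tet2+f_Camk2aCre libraries and 30.5% and 30.4% in the Tet2+f libraries. Further into the gene a region from 60930343 to 60931643 was at 62.8% and 54.7% with Cre and at 42.3% and 47.2% without. A last one from 60939364 to 60943099 was at 56.8% and 46.0% with Cre and at 35.7% and 44.1% without. The gap narrowed from 39.6 points just before the gene start to 7.52 and 1.85 points in these regions of the body. Reads from Camk2a sequence in a transgene and reads from the gene itself cannot be told apart in this table. Tet2 itself, the targeted gene, had 30 regions of this length, of which 0 met the rule, with differences from -5.74 to 3.54 points. Of its 4 shorter regions, which lie at the start of the gene, 2 were at 33.2% and 30.8% in replicate 1 of the Tet2+f_Camk2aCre group and at 0 to 4.08% in the other libraries.

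A small part of the regions meeting the rule lay in blocks of 1 to 8 Mb on chromosomes 13, 14, 17 and 18. Over 2397 windows of 1 Mb with at least 100 regions, 11 windows were higher and 10 lower with Cre by a median of 1 point or more with library medians that did not overlap between the groups. In the other pairings 1 and 0 windows, and 5 and 0 windows, met the same rule. Joined where adjacent, the 21 windows form 9 blocks with 6005 regions, or 0.789% of those eligible. The SD of the window medians was 0.276 points, against 0.226 and 0.216 points in the other pairings. The block rule was set after the values had been seen and uses the same contrast, so these counts are a description. Blocks held 55 of the 2545 higher and 43 of the 1987 lower regions, which leaves 2490 and 1944 outside them.

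On chromosome 17 a pair of blocks was lower with Cre, from 52 to 53 Mb and from 54 to 56 Mb. The window between them fell short of the block rule and held no region that met the 10-point rule, and the values here are over the whole stretch from 52 to 56 Mb. Its 909 regions had median levels of 82.5% and 82.7% in the Tet2+f_Camk2aCre libraries and 84.4% and 84.7% in the Tet2+f libraries. In it 29 regions (3.19%) were lower and 1 was higher, where the background is 0.261% and 0.334%. In the other pairings the same stretch held 1 lower and 0 higher, and 0 lower and 2 higher. The stretch was picked by the Cre contrast, so small counts there in the other pairings carry no weight. Without any 1 library, 29 to 34 regions were lower, under a rule that asks less. Over all eligible regions that rule took 4858 to 7415 as lower, against 1987 with all 4 libraries. The 30 regions had a median length of 5399 bp, against 4149 bp for the stretch and 1590 bp for all lower regions, and 23 of them overlapped no coding gene. The differences of the 29 lower ones ran from -14.5 to -10.1 points.

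Within that stretch the steepest point was from 55 to 55.5 Mb, around St6gal2, a sialyltransferase of the Golgi. There the median deviation from the 4-library mean was -2.50 and -1.86 points in the Cre libraries and 2.52 and 2.18 points in the control libraries, over 97 regions. A region 161895 bp from St6gal2 was at 72.3% and 68.4% with Cre and at 83.8% and 84.0% without. Inside St6gal2 a region from 55502097 to 55506829 was at 75.4% and 73.3% with Cre and at 86.1% and 83.5% without. At Slc5a7, the high-affinity choline transporter that supplies acetylcholine synthesis, the region over the gene start was at 42.7% and 46.0% with Cre and at 58.2% and 54.8% without. Kcnh8, a voltage-gated potassium channel gene, held 1 lower region, at 74.4% and 75.8% with Cre and at 86.3% and 84.2% without. Satb1, a chromatin organiser of neurons and lymphocytes, was the nearest coding gene to 3 more at 211471 to 289934 bp. Of the 22 lower runs of adjoining regions, 5 lay in this stretch, near Kcnh8, Slc5a7 and St6gal2.

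Chromosome 14 was higher with Cre from 47 to 55 Mb, the longest block. Its 2614 regions had median levels of 83.9% and 83.7% in the Tet2+f_Camk2aCre libraries and 81.8% and 82.2% in the Tet2+f libraries, and 67.5% of them had a higher mean with Cre. In it 33 regions (1.26%) were higher and 6 lower, where the background is 0.334% and 0.261%. The other pairings had 8 and 11, and 6 and 7. The block was picked by the Cre contrast, so those counts carry no weight. The genes it spans are of many kinds. Slc7a7, an amino acid transporter, had a region at 80.8% and 81.7% with Cre and at 69.5% and 69.5% without. Ndrg2, an astrocyte gene, had one at 83.7% and 80.9% with Cre and at 71.7% and 71.9% without. The olfactory receptor, ribonuclease and T cell receptor alpha clusters of this block hold duplicated sequence, and regions there are uncertain. Lower regions inside the block included one in Slc39a2, a zinc transporter, at 48.7% and 50.5% with Cre and at 61.2% and 66.9% without.

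The block from 59 to 61 Mb on chromosome 18 reaches Camk2a and leaned on 1 library. Its 604 regions had median levels of 82.8% and 82.6% in the Tet2+f_Camk2aCre libraries and 79.3% and 81.2% in the Tet2+f libraries. It held 14 higher regions (2.32%) and 1 lower, where the background is 0.334% and 0.261%, and 5 of the 14 are those of Camk2a. The others lay in or near Chsy3, a chondroitin synthase, Gm4951, Iigp1, an interferon-induced GTPase, Synpo, an actin-binding protein of dendritic spines, and Tcof1. Replicate 1 of the control group was the lowest, and without it 7 regions were higher with a median difference of 1.11 points, against 1.90 points with it. In the other pairings the block held 5 higher and 4 lower regions each time. It too was picked by the Cre contrast, so those counts carry no weight.

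Another stretch, on chromosome 13 from 10 to 15 Mb, fell short of the block rule with a median difference of 0.680 points but had the largest share of higher regions among windows of 5 Mb. Of its 1294 regions, 21 (1.62%) were higher and 1 was lower, against 3 and 2, and 0 and 1, in the other pairings. The stretch was picked for its share with Cre, so lower counts there in the other pairings carry no weight. By the same ranking the replicate pairing reached 1.86% higher on chromosome 14 from 0 to 5 Mb. The crossed pairing reached 1.83% on chromosome 7 from 20 to 25 Mb. Chrm3, the M3 muscarinic acetylcholine receptor gene, held 4 of the chromosome 13 regions that met the rule, all higher. The one from 10175428 to 10180906 was at 97.1% and 92.4% in the Tet2+f_Camk2aCre libraries and at 77.7% and 78.4% in the Tet2+f libraries. Ryr2, the calcium release channel of the endoplasmic reticulum, held 3, among them a region from 11822127 to 11825905 at 84.6% and 84.4% with Cre and at 71.5% and 73.2% without. Hecw1, a ubiquitin ligase, held 2 and Lyst, a regulator of lysosomal trafficking, held 1. Without any 1 library, 23 to 29 regions of the stretch were higher, under a rule that asks less. Over all eligible regions that rule took 0.640% to 1.35% as higher, against 0.334% with all 4 libraries.

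**Figure D3:**
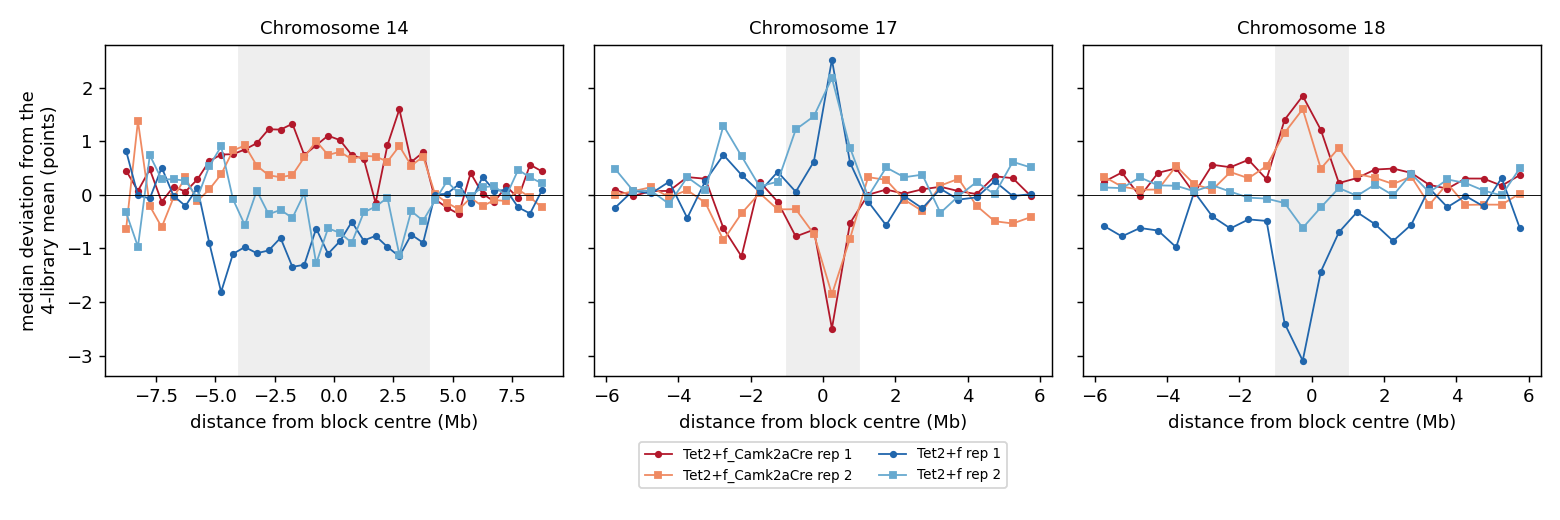
Median deviation of each library from the 4-library mean, in percentage points, by window of 0.5 Mb against the distance in Mb from the centre of the blocks on chromosomes 14, 17 and 18, which are shaded. The Tet2+f_Camk2aCre libraries lie above the Tet2+f libraries in nearly all of the chromosome 14 block and below them in the chromosome 17 block from 54 to 56 Mb, and on chromosome 18 replicate 1 of the Tet2+f group lies lowest, at -3.10 points.

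Genes of CA1 pyramidal neurons held 12 higher regions and 1 lower one. These are 2.34% and 0.195% of 512 regions over 20 genes, where over all coding genes 0.402% were higher and 0.298% lower. In the other pairings the same genes had 3 higher and 5 lower, and 4 higher and 3 lower. Camk2a gives 5 of the 12. Without it 7 of 474 regions (1.48%) were higher and 1 lower. In the other pairings these regions gave 3 higher and 3 lower, and 1 higher and 1 lower. Without any 1 library the list held 11 to 23 higher regions, the most without replicate 2 of the Tet2+f group, where the share was 4.49% against 1.35% of all regions. A higher region lay in 6 of the 20 genes (30%), where 6.57% of all coding genes had one. The share by gene takes no account of how many regions a gene has. Among 46 glutamatergic synapse genes 14 (30.4%) had a higher region, though their share by region was 0.341%, under that of all coding genes. This list was drawn up with earlier results of these data known, and its counts carry no test.

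Mpped1, a metallophosphoesterase gene of cortical and CA1 neurons, had 2 higher regions. The wider was at 84.0% and 88.7% in the Tet2+f_Camk2aCre libraries and at 70.3% and 63.6% in the Tet2+f libraries. Camk2b, the beta subunit partner of Camk2a, had one at 65.1% and 57.8% with Cre and at 46.9% and 49.4% without. Both lie in gene bodies, as do the remaining ones. Fibcd1, a marker of CA1, had 2 regions, at 66.0% and 64.3% with Cre against 48.3% and 56.2% in the wider. Man1a, a mannosidase of N-glycan processing, was at 90.7% and 90.0% with Cre and at 81.9% and 77.1% without. Pex5l, an auxiliary subunit of HCN channels, was at 69.1% and 75.4% with Cre and at 55.6% and 65.6% without. The only lower region lay before the start of Neurod1, a basic helix-loop-helix factor, at 8.76% and 21.8% with Cre and at 22.6% and 29.7% without, a gap of 0.802 points.

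**Figure D4:**
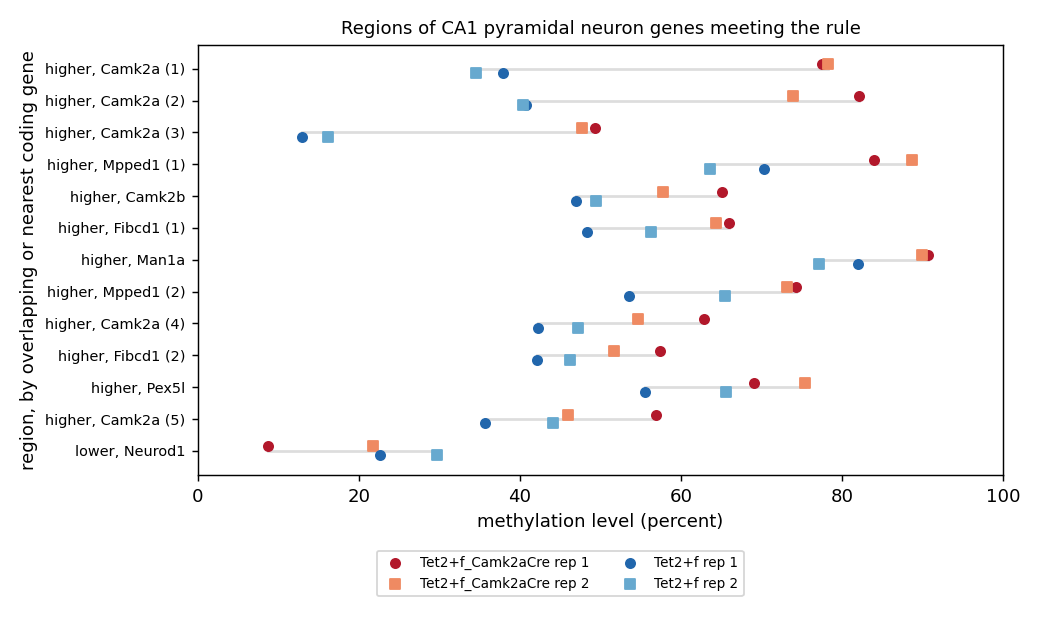
Methylation level in percent in each library of the 13 regions over CA1 pyramidal neuron genes that met the rule, numbered within a gene by gap. Of these, 12 have both Tet2+f_Camk2aCre points above both Tet2+f points, with Camk2a widest, and the region at Neurod1 has them below.

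Over genes of other cell types the lists are small. Dentate gyrus and CA3 genes had 5 higher and 4 lower of 1191 regions (0.756%), interneuron genes 3 and 1 of 446 (0.897%) and astrocyte genes 2 and 0 of 230 (0.870%). Oligodendrocyte genes had 4 and 1 of 246 (2.03%), endothelial genes 3 and 1 of 356 (1.12%) and microglia genes 0 and 0 of 161. Over all coding genes the share in both directions was 0.700%, below each of these but the microglia genes. In the other pairings oligodendrocyte genes had 2.03% and 4.07%, endothelial genes 1.40% and 0.562%, interneuron genes 0.448% and 0%, and astrocyte genes 0.435% and 0.870%. Dentate gyrus and CA3 genes had 0.840% and 0.756% there, and microglia genes 1.86% and 1.24%. Pdgfra, the receptor of oligodendrocyte precursors, had a higher region before its start, at 17.9% and 15.5% in the Tet2+f_Camk2aCre libraries and at 3.30% and 4.62% in the Tet2+f libraries. Lhx6, a factor of interneurons, had 1 higher and 1 lower region, and the higher was at 19.97% and 16.7% with Cre and at 3.07% and 5.29% without. A part of cell makeup in any difference was not tested.

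Synaptic and memory genes were split between the directions. Of 4983 regions over 46 autosomal glutamatergic synapse genes, 17 (0.341%) were higher and 14 (0.281%) lower, close to the shares over all coding genes. Grm2, a presynaptic metabotropic glutamate receptor, had a higher region at 64.9% and 59.1% with Cre and at 44.5% and 46.8% without. Dlgap3, a postsynaptic scaffold, had 2 higher regions and 1 lower, and the lower was at 40.5% and 39.9% with Cre and at 55.6% and 57.7% without. Both Grin2d, an NMDA receptor subunit, and Shank3, a scaffold, had a region in either direction. Memory and plasticity genes had 11 higher (0.489%) and 6 lower (0.267%) of 2251, against 2 and 8, and 14 and 6, in the other pairings. Ppp3ca, the catalytic subunit of calcineurin, had 3 of the higher ones, the widest at 56.3% and 61.6% with Cre and at 39.5% and 41.1% without. Prkca, a protein kinase C gene, had 3 higher and 1 lower. Among 22 activity-regulated genes 3 of 194 regions (1.55%) were higher, in Nr4a3, Arc and Nr4a2, and 0 were lower. Over all coding genes 0.402% were higher and 0.298% lower. The other pairings gave 3 and 3 (3.09%), and 0 and 2 (1.03%), for the activity-regulated genes. Nr4a3, an orphan nuclear receptor induced by activity, was at 63.4% and 48.1% with Cre and at 35.0% and 36.6% without.

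Imprinted genes, whose control regions are methylated on 1 parental allele, had 9 higher regions and 10 lower of 1259 (1.51%). Over all coding genes the share was 0.700%. The other pairings exceeded the imprinted share, with 1.99% and 1.75% over the same genes. Grb10, an adaptor of growth factor receptors, had the widest lower gap, at 49.7% and 52.1% in the Tet2+f_Camk2aCre libraries and 69.5% and 72.4% in the Tet2+f libraries. H19, a long non-coding RNA, was at 52.6% and 50.2% with Cre and at 68.0% and 68.1% without. Snrpn, of the spliceosome, was at 39.9% and 21.5% with Cre and at 65.8% and 50.1% without. In the other direction Meg3, also a long non-coding RNA, had 2 regions, the wider gap at 84.9% and 84.2% with Cre and at 74.6% and 71.3% without. The clustered protocadherins had 1 region in either direction of 270 (0.741%), close to the 0.700% of all coding genes, against 2.59% and 1.11% in the other pairings.

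Genes of the methylation machinery had 1 higher and 4 lower of 270 regions (1.85%) over Tet and demethylation genes, and 2 higher and 1 lower of 273 (1.10%) over methyltransferases and readers, where all coding genes had 0.700%. Tet3, another dioxygenase of the family, had 2 lower regions in its body, at 67.3% and 72.8% with Cre against 81.4% and 84.0% in the wider. Cxxc5, a CXXC zinc finger gene, had 1 higher and 2 lower. Dnmt1, the maintenance methyltransferase, had 2 higher regions in its body, and the wider was at 74.4% and 78.9% with Cre and at 59.995% and 62.2% without. Zbtb38, a reader of methylated CpG, had a lower region at 41.4% and 49.7% with Cre and at 65.7% and 53.6% without. In the replicate pairing these lists had 8 and 7 regions (2.96% and 2.56%), and in the crossed one 2 and 2.

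Regions meeting the rule were shorter and less methylated than those at large, in every pairing. Their median length was 1579.5 bp, against 2627 bp over all 761315, and their median level 67.2% against 84.0%. In the other pairings the medians were 1524 and 1551 bp and 66.5% and 66.5%. By length 2.19% of regions of 500 to under 1000 bp met the rule and 0.203% of those of 4000 to under 10000 bp. By level 3.13% of regions at 20 to under 50% did, and 0.152% of those at 80 to 100%. Gene starts had 0.903%, the 2000 bp before them 0.775%, gene bodies 0.668% and intergenic regions 0.451%. Higher and lower members hardly parted in length, at 1575 and 1590 bp, or level, at 66.7% and 67.9%.

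**Figure D5:**
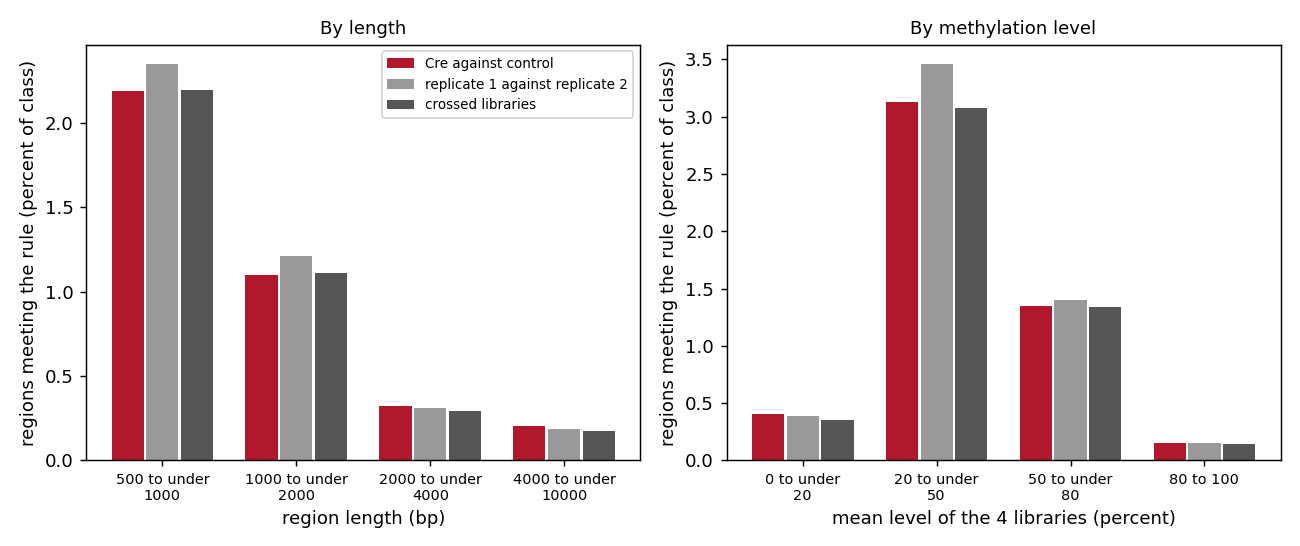
Percent of regions meeting the rule by region length in bp (left) and by mean level of the 4 libraries in percent (right), for the Cre libraries against the controls and the 2 other pairings. In each pairing the share is highest for regions under 1000 bp, at 2.19% with Cre, and for levels of 20 to under 50%, at 3.13%, and the bars of the pairings are alike.

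Neighbours of these regions differed little. Adjoining regions that did not meet the rule themselves had median differences of 0.326 and 0.179 points on the lower-coordinate and higher-coordinate side of higher regions, and of -0.280 and -0.302 points beside lower ones. In the crossed pairing the neighbours of higher regions had 0.452 and 0.445 points, and those of lower regions -0.0179 and 0.0400 points. In the replicate pairing they had 0.0533 and 0.183 points, and -0.362 and -0.411 points. The median over all eligible regions was -0.0371 points with Cre, -0.0669 in the replicate pairing and 0.218 in the crossed one. The neighbour values of the pairings therefore start from different levels. Runs of 2 or more adjoining regions in the same direction numbered 42 higher, with 86 regions (3.38%), and 22 lower, with 44 (2.21%), against 25 and 40 in the replicate pairing and 33 and 30 in the crossed one. Besides Camk2a, the one run of 3 lay 13310 bp from Gas8 on chromosome 8, at a mean of 58.6% and 50.2% in the Tet2+f_Camk2aCre libraries and 37.4% and 29.3% in the Tet2+f libraries. These 3 regions lie over repeated ribosomal RNA genes whose reads may be misplaced, so their values are uncertain. Runs of 2 in neuronal genes included Rbfox3, the NeuN splicing factor, higher, at a mean of 47.1% and 47.3% with Cre and 34.1% and 36.1% without. Another lay 633 bp from Pax6, a developmental factor, and was lower, at 31.1% and 32.4% with Cre and 48.4% and 43.3% without.

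At the threshold itself, the closest higher region inside was on chromosome 5 from 56129320 to 56130462, with 96.1% and 89.8% in the Tet2+f_Camk2aCre libraries and 83.9% and 82.0% in the Tet2+f libraries. The next inside lay in Ttc39c, at 83.6% and 77.0% with Cre and 71.7% and 68.9% without. Just outside, a region in Gm35240 was at 86.7% and 87.7% with Cre and at 70.5% and 83.9% without, and one on chromosome 13 from 15420554 to 15423449 was at 61.1% and 63.3% with Cre and at 52.3% and 52.1% without. Among lower regions one on chromosome 19 from 8028957 to 8031498 was just inside, at 80.9% and 74.8% with Cre and 89.8% and 86.0% without, and one on chromosome 4 from 118319648 to 118322006 was at 55.2% and 58.0% with Cre and 74.4% and 58.8% without. Just outside were one in Tshz2, at 41.5% and 40.4% with Cre and 51.7% and 50.2% without, and one over Hhatl and Klhl40, at 61.9% and 67.6% with Cre and 73.8% and 75.7% without.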

How the data were processed

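The authors deposited 1 table of methylation in percent, with a row for each region and a column for each library. The submitters' processing notes name build mm10, Bismark 0.19.0, edgeR without a version, Trim Galore 0.4.5 and FastQC 0.11.5. Per the labels' protocols, DNA was converted with a Swift Accel-NGS kit and sequenced in paired-end mode (150 bp), with 500000000 reads stated for each sample. How regions were drawn, with or without a coverage minimum, was not stated in the sources read, so thinly and deeply covered regions enter alike and no counting interval can be given.

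Of the rows, 158 lacked a value and were left out. Regions were matched to RefSeq genes of GRCm38.p6, which shares its chromosome coordinates with mm10, and assigned to gene starts, the 2000 bp before them, gene bodies or intergenic sequence. The test of all regions was limma 3.58.1 (R 4.3.3), run on logit levels with an offset of 0.01 and Benjamini-Hochberg adjustment over the whole table at 0.05. It was also run on simulated levels with shifts added to some regions. The outcome is not given here, so the power of 2 libraries per group behind a count of 0 is not stated. Other steps used Python 3.11.15, pandas 2.3.3 and numpy 2.4.6. The 2 other pairings of the 4 libraries were put through the same rule as counts.

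Named regions were the 12 widest gaps per direction, runs of adjoining regions under 1000 bp apart, the 5 widest gaps over gene starts, members over Tet2, Camk2a or 14 gene lists, and the 2 regions on either side of the threshold. The members, lists and rules were chosen with earlier results of these data known. The stretches on chromosomes 13, 14, 17 and 18 and the genes named there were chosen after their values were seen. Deviations of same-numbered libraries from their group means correlated at 0.00639 over regions, so the block on replicate number served only as an alternative.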

Additional observations from a re-analysis of the deposited data

How the results depend on the processing

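The count of 2545 higher and 1987 lower regions moved with the least difference, to 28744 and 28025 at 5 points, 311 and 220 at 15 points and 57 and 48 at 20 points. With a least gap, set after seeing the data, it was 346 and 252 at 10 points, 13 and 4 at 20 points and 7 and 0 at 30 points. Leaving out 1 library at a time, where the lone library has only to lie beyond both others, gave 4871 to 10264 higher and 4858 to 7415 lower regions, since that rule asks less. Other lengths, all chromosomes, centred libraries, no levels at exactly 0 or 100% and a gap of 5 points kept both counts within 1.5 times.

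With limma, 0 regions passed under every alternative run, including the replicate number as a block, which gave 0 regions (smallest adjusted p = 0.954, 24488 unadjusted) and a mean difference of -0.00849 points. A trended and robust prior gave the smallest adjusted p, 0.0731. The mean difference ranged from -0.190 points without control replicate 1 to 0.173 points without control replicate 2 and was 0.0527 points without Cre replicate 2. Its direction is therefore not settled, and the cause was not tested. Of 175 values of 35 named regions under other settings, 0 changed sign and 2 moved by over 1.5 times. The sign could not change without 1 library, since the rule already puts both libraries of a group beyond both others. These values are therefore no test of the named regions.

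Without 1 library the chromosome 14 block held 42 to 99 higher regions, while the eligible regions as a whole gave 4871 to 10264. The chromosome 18 block held 7 to 56. Read depth per region is unknown, and the 500 bp minimum leaves some regions that few reads may cover.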

Other observations

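Hairpins of 5 microRNA or predicted genes lay in regions meeting the rule, Mir343, Mir759 and Gm51277 in higher and Mir7011 and Mir92b in lower ones. The number of hairpins over all eligible regions is not given here, so these are examples and cannot be set beside the background. The Mir343 region on chromosome 7 was at 80.2% and 79.8% in the Tet2+f_Camk2aCre libraries and at 53.2% and 69.7% in the Tet2+f libraries.

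Among the other blocks, one on chromosome 13 from 4 to 5 Mb was higher with Cre by a median of 1.04 points. It held 3 higher regions of 217 (1.38%) and 0 lower, where the background is 0.334% and 0.261%. One on chromosome 18 from 9 to 12 Mb, with 797 regions, was lower by a median difference of -1.19 points and held 2 higher and 3 lower regions. On chromosome 14 from 110 to 112 Mb the median difference was -1.69 points while 1 region was higher and 1 lower, at median levels of 80.5% and 80.3% with Cre and 83.1% and 80.9% without, with control replicate 1 the highest of the 4.

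Some windows of 5 Mb were rich in regions meeting the rule in every pairing. Chromosome 8 from 120 to 125 Mb held 42 higher and 24 lower regions of 2916 with Cre, against 19 and 47 in the replicate pairing and 44 and 27 in the crossed one. The 42 are 1.44%, where 0.334% of all eligible regions were higher and 0.261% lower with Cre. This window includes the repeated ribosomal RNA genes near Gas8, whose reads may be misplaced.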
